A study of Drosophila melanogaster with 6 samples.

Results

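Amy-p, Amy-d, Amyrel, Gal, Treh and tobi encode sugar-cleaving enzymes of the Drosophila melanogaster gut. They were chosen by name from a table of read counts, and all 6 were found among its 15391 gene rows. The table holds RNA sequencing counts from midguts of adult flies in 2 groups of 3 libraries. In one group, an RNA interference construct against Rab11, a small GTPase of recycling endosomes, was driven by Myo1A-Gal4, which is active in enterocytes, the absorptive cells of the epithelium. The other group was labelled wild type, and no further allele is given for either. Flies of both groups were moved to 29 °C at 5 days after eclosion, on a cornmeal and molasses food low in yeast, and were dissected 5 days later. The labels name enterocytes as the cell type, but the RNA came from whole midguts, which hold other cells too.

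Starch and sugars are digested in the fly midgut by enzymes that enterocytes make. Alpha-amylases cut starch into short glucose chains, maltases (alpha-glucosidases) release glucose from these, and trehalase splits trehalose, the main sugar of fly blood, into glucose. In flies the amylases are known to be repressed by dietary glucose. Amy-p and Amy-d are a pair of near-identical amylase genes, and Amyrel is a diverged relative. Gal encodes a beta-galactosidase, Treh the trehalase, and tobi ("target of brain insulin") an alpha-glucosidase whose expression in flies responds to diet and to insulin-like and glucagon-like hormones.

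Levels are CPM, a gene's counts relative to all counts of its library, scaled between libraries by the trimmed mean of M-values (TMM). Group means carry the SD over 3 libraries. Knockdown was set against wild type with edgeR's quasi-likelihood test over 8377 genes, and a log2 fold change (knockdown over wild type) is called when its Benjamini-Hochberg adjusted p is under 0.05. Libraries held 9818914 to 33082790 counts, with replicate 3 the deepest of each group. Rab11 had 64.4 to 78.7 CPM with the knockdown, against 219 to 319 CPM without it (log2 fold change -1.87, SE 0.23, adjusted p = 0.00342). Wild-type replicate 2 had that wild-type level of Rab11 (270 CPM) but stood apart in heat shock transcripts. In it Hsp26 was at 2.80 CPM, against 204 to 639 CPM in the other 5 libraries, and Hsp68 was at 1.78 CPM, against 141 to 578 CPM (genes named after their values were seen). Markers of stem cells and enteroblasts had a summed level of 140 to 155 CPM in knockdown libraries, against 28.3 to 61.8 CPM in wild-type ones, with 4 of 6 called higher. Those of enteroendocrine cells had 674 to 916 and 233 to 280 CPM, with 9 of 9 called higher. Of 8 enterocyte markers, 2 were called higher and none lower, with summed levels of 8873 to 9900 and 4950 to 6056 CPM. Most of that difference came from the 2 called markers, CG31004 (means of 3981 and 1279 CPM) and Tsp2A (1158 and 304 CPM). Of those not called, mex1, CG6981, nub and bbg were at 1.02, 0.54, 0.39 and 0.26 on the log2 scale. Myo31DF and Myo61F were at -0.55 and -0.14. Over all genes tested 9.05% were called higher and 7.63% lower. No marker of these lists was at 0 in all libraries. The part of cell composition in the results was not tested, and in whole midguts fewer cells of a type and less RNA per cell cannot be told apart.

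Gal, Amyrel and Treh fell in the knockdown, by 5.02, 3.61 and 1.55 on the log2 scale. The starch-cutting pair Amy-p and Amy-d did not pass the test. With tobi they had the highest mean levels of the 6 in both groups. In the wild type Amy-d did so only through replicate 2, at 5184 CPM. In wild-type replicates 1 and 3 it was at 408 and 132 CPM, below Treh at 1061 and 543 CPM. The alpha-glucosidase tobi was at 24.2% of its wild-type mean and lay just outside the threshold (adjusted p = 0.0511), and it was called with the replicate number as a block (adjusted p = 0.00962). The labels do not pair the libraries, and the block was taken up from correlations in these same data. Thus 3 of 6 genes were called lower and 0 higher, or 4 and 0 with the block. Over all genes 7.63% were called lower and 9.05% higher, or 14.0% and 15.2% with the block. The median log2 fold change was -1.80 over the 6 genes and 0.04 over all genes tested. The 6 were chosen with earlier results of these data known, so this share is a description only.

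**Figure D1:**
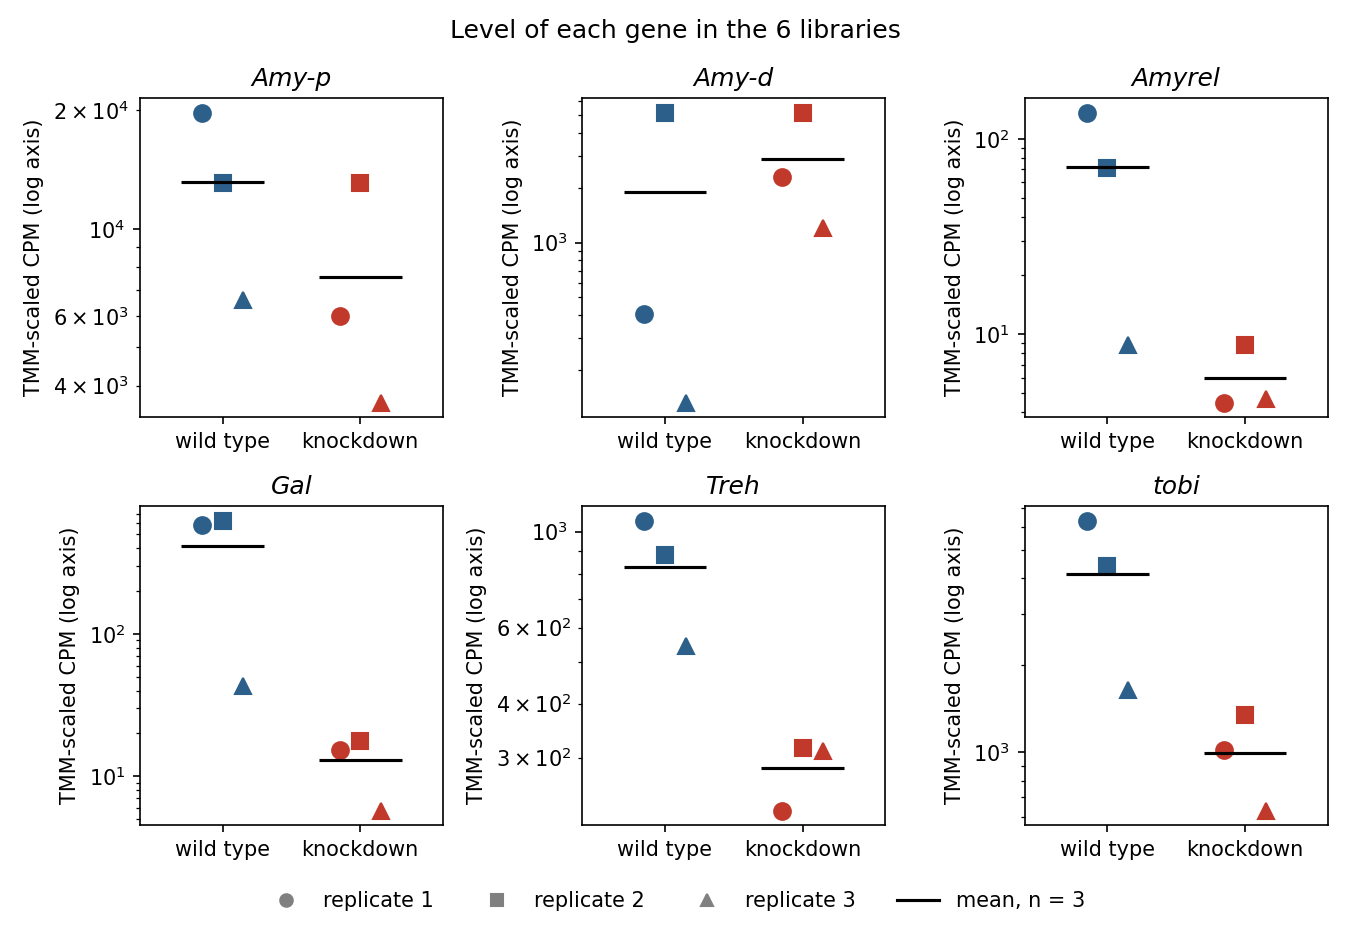
TMM-scaled CPM (log axis) of each of the 6 genes in the 3 wild-type libraries (blue) and the 3 Rab11 knockdown libraries (red). Marker shape gives the replicate number and the bar the group mean (n = 3). For Gal, Treh and tobi every knockdown library lies below every wild-type library, and wild-type replicate 3 is the lowest wild-type library for all 6 genes.

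Amy-p ranked 12th by CPM among all tested genes in the wild type and 7th in the knockdown. The wild-type libraries gave 19740, 13098 and 6612 CPM for replicates 1, 2 and 3, and the knockdown libraries 6025, 13061 and 3616 CPM. The groups overlap, since knockdown replicate 2 stood at the level of wild-type replicate 2 and above that of wild-type replicate 3. The wild-type mean was 13150 ± 6564 CPM and that of the knockdown 7568 ± 4908 CPM. The log2 fold change was -0.80 (SE 0.67, adjusted p = 0.466), with a 95% interval of -2.36 to 0.77, so that neither a 4-fold fall nor equal levels lies outside it. The value was -1.45 without knockdown replicate 2 and -0.38 without wild-type replicate 1, and neither passed (adjusted p = 0.217 and 0.793).

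Amy-d, the other copy, varied widely between wild-type libraries. It was at 408 CPM in wild-type replicate 1, 5184 CPM in replicate 2 and 132 CPM in replicate 3, a 39.4-fold range. The knockdown libraries gave 2289, 5182 and 1198 CPM, all above wild-type replicates 1 and 3, with replicate 2 level with wild-type replicate 2. The fitted log2 fold change was 0.60 (SE 1.23, adjusted p = 0.786), with a 95% interval of -2.28 to 3.47. It was 3.43 without wild-type replicate 2 (adjusted p = 0.0687), -0.13 without knockdown replicate 2 (0.971), 0.12 without wild-type replicate 1 (0.970) and 0.00 without wild-type replicate 3 (0.999). With the replicate block it was 1.95 (adjusted p = 0.0686).

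The split between the copies formed 2 levels. Amy-d held 27.5%, 28.4% and 24.9% of the counts of the pair in knockdown replicates 1, 2 and 3. In the wild type it held 2.02%, 28.4% and 1.95%. Wild-type replicate 2 thus lay inside the knockdown range, while replicates 1 and 3 lay far below it. Exact binomial 95% intervals, which cover counting error only, were 1.95 to 2.09% and 1.89 to 2.01% in wild-type replicates 1 and 3, and 28.1 to 28.6% in replicate 2. The pair rests on at least 117596 counts in each library, so depth does not limit this share. The mean Amy-d share was 26.9 ± 1.83% for the knockdown, against 10.8 ± 15.2% for the wild type, a difference of 16.2 percentage points (exact two-sided permutation test, p = 0.3, where 0.1 is the smallest p that 3 libraries against 3 allow). Per exonic length the shares were 25.6 to 29.2% for the knockdown libraries. Those of the wild type were 2.10%, 29.1% and 2.03%.

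How the authors' counting divided reads between the near-identical copies is not given in the sources used here. The sum of both rows does not depend on that division and is given as well. Reads counted for neither copy would be missing from the sum too, which was not tested. In the current annotation the copies lie on opposite strands with 2 genes between them, and neither shares exonic bases with another gene. Together they took 1.57%, 1.45% and 0.700% of all counts in wild-type replicates 1, 2 and 3. In the knockdown libraries they took 0.992%, 1.64% and 0.695%. The ranges overlap, and replicate 3 had the smallest share in each group. Fitted as 1 row, the pair had 15055 ± 7259 CPM without and 10461 ± 6973 CPM with the knockdown, so that the log2 fold change came to -0.53 (SE 0.69, adjusted p = 0.659, 95% interval -2.15 to 1.10). Over the fits that each left out a single library the value ran from -1.20, without knockdown replicate 2, to -0.20, without knockdown replicate 3, and it was -0.16 with library totals alone. None of these passed.

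**Figure D2:**
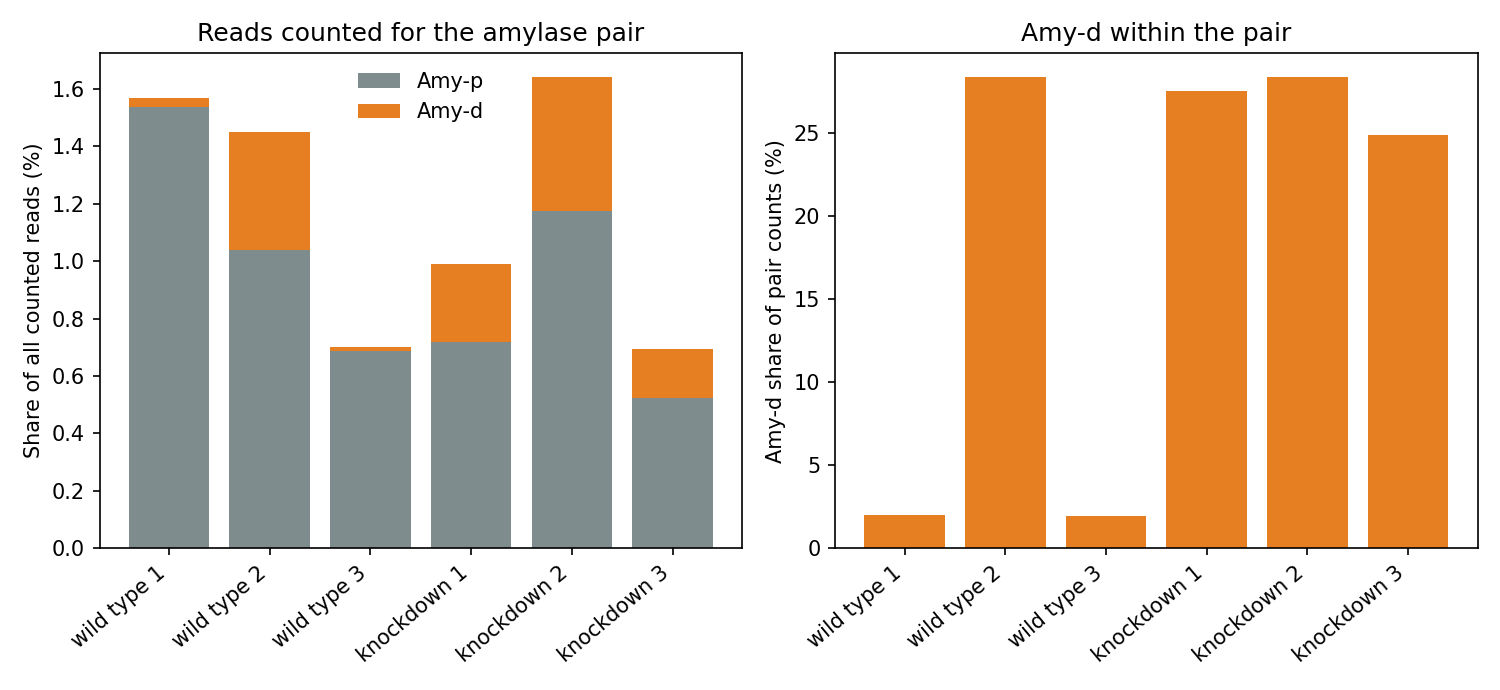
Left, the share of all counted reads (%) taken by Amy-p (grey) and Amy-d (orange) in each library. Right, the share of Amy-d (%) in the counts of the pair. Amy-d holds about 2% of the pair in wild-type replicates 1 and 3 and 24.9 to 28.4% in the other 4 libraries.

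Amyrel, the diverged amylase relative, was far less abundant than the pair and fell. The wild-type libraries gave 136, 71.2 and 8.81 CPM and the knockdown libraries 4.45, 8.82 and 4.67 CPM. The groups met at one point, where knockdown replicate 2 stood at the level of wild-type replicate 3. Means were 72.0 ± 63.7 and 5.98 ± 2.46 CPM, which gave a fitted log2 change of -3.61 (SE 0.89, adjusted p = 0.0345), with a 95% interval of -5.70 to -1.52. Within pairs of the same replicate number, the wild type was 30.6, 8.07 and 1.89 times the knockdown. In the fits that each left out a library, the call held only without wild-type replicate 3 (adjusted p = 0.00388), and the others gave 0.0788 to 0.137. The log2 fold change was -2.75 without wild-type replicate 1 and -2.91 with the replicate block. Without both replicate 3 libraries it held, at -4.02 (adjusted p = 0.00274).

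Gal, the beta-galactosidase, had the largest fall of the 6. Wild-type libraries had 577, 626 and 43.2 CPM, while knockdown libraries had 15.3, 17.8 and 5.72 CPM. Every knockdown library was below every wild-type library, as for 17.7% of all genes tested. Its mean went from 415 ± 323 to 12.9 ± 6.37 CPM, which leaves 3.11% of the wild-type mean. The log2 fold change was -5.02 (SE 1.01, adjusted p = 0.0181), with a 95% interval of -7.39 to -2.64. The wild type was 37.6, 35.2 and 7.55 times the knockdown in the pairs of replicates 1, 2 and 3. Leaving out replicate 1 (0.0798) or 2 (0.0652) of the knockdown, or replicate 1 of the wild type (0.0537), took the adjusted p above the threshold, while the log2 fold change stayed between -5.59 and -4.59 whichever library was left out.

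Treh, the trehalase, fell less but varied little within groups. It stood at 1061, 885 and 543 CPM in wild-type libraries, against 226, 315 and 310.0 CPM with the knockdown, and the groups do not overlap. The mean fell from 830 ± 263 to 284 ± 50.3 CPM, a 2.92-fold decrease in the fit (log2 fold change -1.55, SE 0.33, adjusted p = 0.0223, 95% interval -2.33 to -0.77). The ratio of wild type to knockdown was 4.70, 2.80 and 1.75 in the 3 pairs. Its adjusted p rose above the threshold when replicate 1 (0.113) or 2 (0.0627) of the knockdown was left out, or replicate 1 (0.0801) or 2 (0.0725) of the wild type.

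The alpha-glucosidase gene tobi ranked 29th by CPM among all tested genes in the wild type and 157th in the knockdown. Its levels were 6316, 4416 and 1648 CPM in wild-type libraries, against 1017, 1350 and 629 CPM with the knockdown. The lowest wild-type library lay above the highest knockdown library. The means of 4127 ± 2347 and 999 ± 361 CPM gave a fitted log2 change of -2.05 (SE 0.58, adjusted p = 0.0511), with a 95% interval of -3.40 to -0.70. The wild type was 6.21, 3.27 and 2.62 times the knockdown in the pairs. It was not called with upper-quartile (0.0582) or DESeq2 size factors in edgeR (0.0534), nor without any single library other than wild-type replicate 3 (0.0946 to 0.171). It was called without that library (0.0238), without both replicate 3 libraries (0.0148), and with DESeq2 (0.000602), library totals alone (0.0378) or no filter on low counts (0.0470).

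Values from the authors' deposited table ran the same way for these 4 genes. In the authors' deposited table, the log2 fold changes were -3.90 for Gal, -2.86 for Amyrel, -1.84 for tobi and -1.49 for Treh. Its adjusted p from DESeq2 was 9.6e-09, 3.8e-05, 0.000668 and 3.4e-05 in that order. The DESeq2 alternative run here gave larger falls, of -5.02, -3.61, -2.06 and -1.57. The reason for this difference was not tested. The authors' deposited table lists genes with an adjusted p under 0.1, and neither Amy-p nor Amy-d is among its 2450 rows.

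Reads of overlapping genes on the other strand could be shared if strand was not used in counting, which is not stated. In the current annotation Gal overlaps Tsp26A and an antisense RNA, Treh overlaps Rbpn-5, tobi overlaps rha, and Amyrel overlaps gprs. The counts of Tsp26A came to 17.1%, 15.3% and 134% of those of Gal in knockdown replicates 1, 2 and 3, against 0.638%, 0.224% and 15.7% in the wild type. Tsp26A itself was at 0.12 on the log2 scale (adjusted p = 0.915). The counts of Rbpn-5 came to 7.52 to 15.4% of those of Treh in knockdown libraries and 2.81 to 4.55% in wild-type ones, and Rbpn-5 was at 0.11 (adjusted p = 0.780). The counts of gprs came to 2.69 to 3.85% of those of Amyrel in knockdown libraries and 0.187 to 2.5% in wild-type ones. Over the 6 libraries rha had 11 counts in all and the antisense RNA had 0. The part of such reads in the counts of Gal, Treh and Amyrel was not tested.

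Per kilobase of exon the 6 genes kept a wide order of levels. Amy-p had the highest wild-type mean, at 7884 ± 3935 CPM per kilobase, followed by tobi at 1961 ± 1116, Amy-d at 1188 ± 1769, Treh at 190 ± 60.3, Gal at 177 ± 138 and Amyrel at 46.5 ± 41.1. Apart from Amy-p and tobi, whose ranges were separate, each of these genes overlapped its neighbour in that order. Reads counted for neither amylase copy would be missing from the values of Amy-p and Amy-d here too, which was not tested. In the knockdown the order was Amy-p at 4537 ± 2942 CPM per kilobase, Amy-d at 1799 ± 1282, tobi at 475 ± 172, Treh at 65.0 ± 11.5, Gal at 5.52 ± 2.72 and Amyrel at 3.86 ± 1.59. There the ranges of Amy-p and Amy-d overlapped, as did those of Gal and Amyrel, while the other neighbours were separate. Within each knockdown library Amy-p stood above Amy-d. Gal stood above Amyrel in knockdown replicates 1 and 2 but not in replicate 3 (2.44 and 3.01 CPM per kilobase). Summed over the 6, levels averaged 20502 ± 10166 CPM without and 11759 ± 7334 CPM with the knockdown. With library totals alone they were 16871 ± 6660 and 12577 ± 4918 CPM. The 6 took 2.20%, 1.93% and 0.933% of all counts in wild-type replicates 1, 2 and 3. In knockdown replicates 1, 2 and 3 they took 1.14%, 1.80% and 0.832%, so the ranges overlap. Most of each summed level was the amylase pair, which was not called.

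Wild-type replicate 3 was the lowest wild-type library for 6 of 6 genes, as it was for 38.7% of all tested genes. Knockdown replicate 3 was the lowest of its group for 4 of 6, against 36.2% of all genes, and replicate 1 was for Amyrel and Treh. The ratio between the highest and lowest wild-type library was 39.4 for Amy-d, 15.5 for Amyrel, 14.5 for Gal, 3.83 for tobi, 2.99 for Amy-p and 1.95 for Treh. Sequencing is described as Illumina and Ion Torrent with no library assigned to either, so a platform difference could not be fitted. Wild-type replicate 3 also had the highest summed markers of visceral muscle and Malpighian tubule in its group. Their wild-type ranges were 533 to 1335 and 123 to 468 CPM. In the knockdown they were 555 to 717 and 171 to 303 CPM, and none of these markers was called. Fat body markers were lowest in wild-type replicate 1 (69.2 to 381 CPM in its group). The part of other tissues in these levels was not tested.

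Genes with the most similar pattern were found by the root mean square difference of centred log2 CPM over the 6 libraries, among 5875 genes whose mean reached 10 CPM. These values are descriptions over libraries that share group and depth. For Amyrel and for Gal the same genes, CG31089 and the maltase gene Mal-A7, came first and second. The distances were 0.51 and 0.71 for Amyrel and 0.87 and 0.91 for Gal, on the log2 scale. The third for Gal was mag, a lipase gene of the gut, which fell from 3133 to 138 CPM (0.96; log2 fold change -4.51, or -5.28 without knockdown replicate 2). The nearest to Treh was CG8925 (0.16), to tobi Cyp309a1 (0.16), and to Amy-p Prx2540-2 (0.16). The nearest to Amy-d was CG7298 (0.63). Among the 6 themselves, tobi and Treh were closest (0.51) and Amy-d and Gal farthest apart (3.33). The calls of CG31089 (without knockdown replicate 1 or 3 or wild-type replicate 1 or 2, 0.0691 to 0.126, with log2 fold changes of -2.86 without wild-type replicate 1 and -4.58 without knockdown replicate 2, against -3.72), mag (without knockdown replicate 1, 0.0575) and Cyp309a1 (in each such fit but that without wild-type replicate 3, 0.0697 to 0.118) were lost as stated, and that of CG8925 held without each library.

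**Figure D3:**
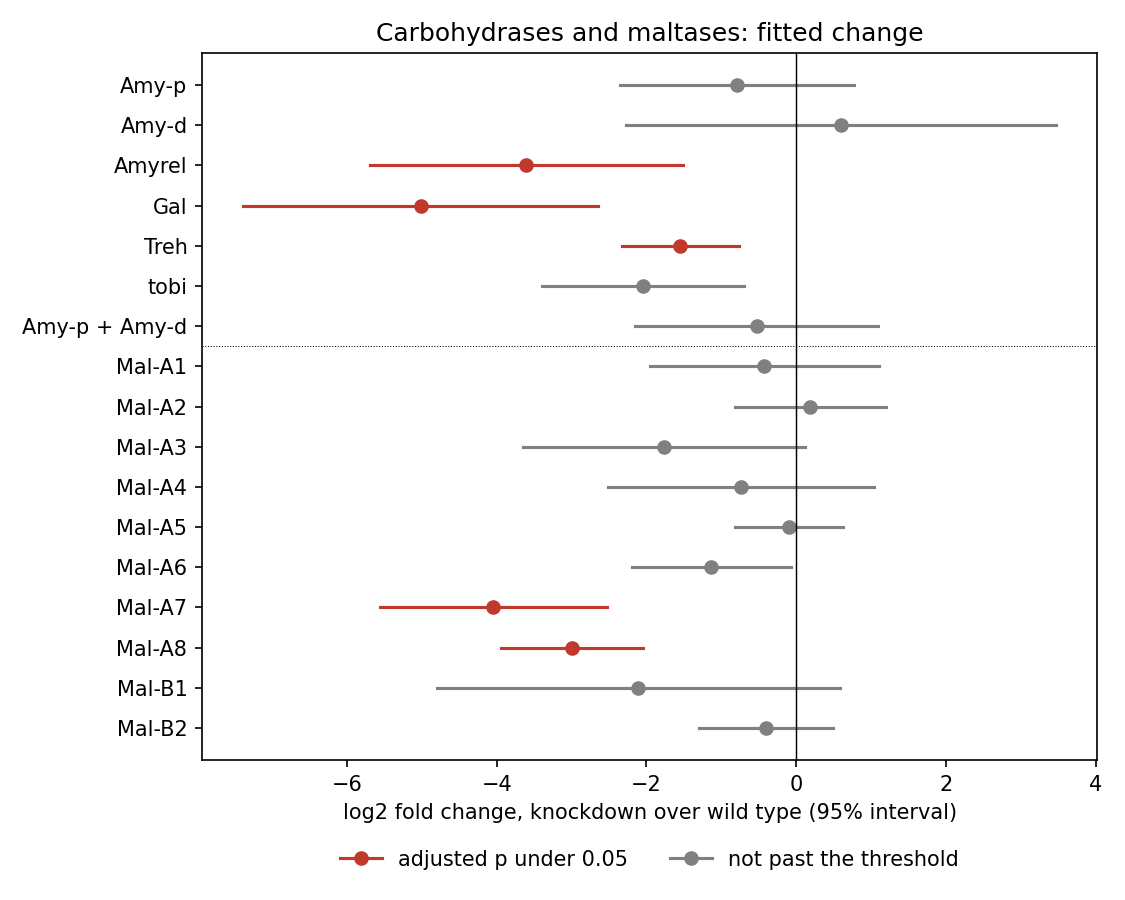
Fitted log2 fold change of knockdown over wild type with its 95% interval for the 6 genes, for Amy-p and Amy-d as 1 row, and, below the dotted line, for the 10 maltase genes. Red marks an adjusted p under 0.05. Gal, Amyrel, Treh, Mal-A7 and Mal-A8 are called lower, and the intervals of Amy-p and Amy-d span 0.

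Of the maltases, which act on the products of amylase, 10 were tested. Among them 2 fell and none rose, against 7.63% of all genes called lower, and 4 fell with the replicate block, against 14.0%. Their median log2 fold change was -0.94, against 0.04 over all genes. Mal-A7 went from 6777, 3978 and 1459 CPM in the wild type to 183, 333 and 225 CPM in the knockdown (log2 fold change -4.04, SE 0.65, adjusted p = 0.00801), a call lost without knockdown replicate 1 (0.0534). Mal-A8 went from 2703, 1867 and 1216 CPM to 194, 294 and 239 CPM (-2.99, SE 0.41, adjusted p = 0.00465), a call that held whichever library was left out. The most abundant maltase, Mal-A1, had 13554 ± 8626 CPM without and 10100 ± 3691 CPM with the knockdown. Its log2 fold change of -0.42 did not pass (adjusted p = 0.711). It was 0.02 with library totals alone, where the median over all genes was 0.47. Mal-A3, Mal-A6, Mal-A4 and Mal-B1 stood at -1.77, -1.14, -0.74 and -2.11, Mal-B2 and Mal-A5 at -0.41 and -0.10, and Mal-A2 at 0.19. Of these, Mal-A3 (adjusted p = 0.0224) and Mal-A6 (0.0418) were called with the block.

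Other glycosidases, mostly lysosomal, were listed with 20 genes. Of these 16 were tested, of which 6 fell and none rose, against 7.63% of all genes called lower and 9.05% higher. With the block 10 fell, against 14.0% of all genes. The median was -1.03, against 0.04 over all genes. With library totals alone 4 fell and 1 rose, where over all genes 240 were called lower and 1154 higher. CG33080 fell from 224 ± 3.26 to 58.4 ± 6.54 CPM (log2 fold change -1.94, SE 0.19, adjusted p = 0.00213), and it too kept its call in each such fit. Ect3, a beta-galactosidase and relative of Gal, fell from 20.8 ± 2.84 to 7.94 ± 0.92 CPM (-1.39, adjusted p = 0.00732), a call lost with library totals alone (0.0705). The lysosomal alpha-mannosidase genes CG9465 (LManIV) and CG5322 (LManI) fell by 2.65 and 1.22 on the log2 scale. The first call was lost without replicate 1 (0.0777) or 2 (0.0625) of the knockdown or replicate 1 (0.0547) of the wild type. The second was lost without replicate 1 (0.115) of the knockdown or replicate 1 (0.0801) or 2 (0.0915) of the wild type. The most abundant gene that was not called was CG9468 (LManVI), at 7009 ± 5197 and 2017 ± 1322 CPM (adjusted p = 0.175, and 0.0115 with the block).

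Of 10 tested genes of sugar transport and trehalose synthesis, 1 fell and none rose (median -0.75), near the 7.63% of all genes called lower. It was CG4607, a predicted sugar transporter, at 907, 278 and 178 CPM in wild-type libraries, against 50.5, 77.6 and 51.9 CPM with the knockdown (-2.92, adjusted p = 0.0217). That call was lost without knockdown replicate 1 (0.0981), 2 (0.0654) or 3 (0.0567), and the log2 fold change was -1.92 without wild-type replicate 1 (0.0227). The transporter gene CG1213, the most abundant of the list, was at -0.88 (adjusted p = 0.311). Among 22 genes of glycolysis, glycogen and the pentose phosphate path, 1 fell and none rose (median -0.24), against 7.63% of all genes called lower. With the block 4 fell, against 14.0% of all genes. Both counts are near those shares. With library totals alone none fell and 1 rose, and the median was 0.15, against 0.47 over all genes. In that setting 240 genes were called lower and 1154 higher over all genes. The gene that fell was the hexokinase gene Hex-C, from 78.4 ± 31.8 to 32.7 ± 1.80 CPM (-1.26, adjusted p = 0.0293). It was not called with library totals alone (0.204), nor without knockdown replicate 1, 2 or 3 or wild-type replicate 2 (0.0535 to 0.122). The glycolytic gene Gapdh2, the most abundant of that list, was at 0.50 (adjusted p = 0.570).

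Regulators of carbohydrase and sugar genes moved in both directions. Of 17 tested, 3 rose and 4 fell (median -0.34), against 9.05% of all genes called higher and 7.63% lower. With the block 3 rose and 7 fell, against 15.2% and 14.0% of all genes. ImpL2, a secreted binder of insulin-like peptides, rose by 4.16, and the insulin receptor gene InR rose from 10.2 ± 3.06 to 39.7 ± 18.6 CPM (log2 fold change 1.96, adjusted p = 0.0173). The forkhead factor foxo, which insulin signalling inhibits, fell from 113 ± 25.2 to 41.9 ± 12.7 CPM (-1.42, adjusted p = 0.0175). Smox, the Smad transducer of activin-type signals, fell from 62.4 ± 2.38 to 34.5 ± 5.33 CPM (-0.85, adjusted p = 0.0223). The activin-like ligand daw, known in flies to repress amylase on glucose-rich food, had 4.19, 18.3 and 11.1 CPM in wild-type libraries, against 0.848, 0.113 and 2.47 CPM with the knockdown (-3.12, adjusted p = 0.0470). The transcription factor sug, which in flies responds to dietary sugar, fell by 1.43 (adjusted p = 0.0341). Hnf4 and the factor cbt stood at -0.34 and 0.50 and did not pass (adjusted p = 0.292 and 0.344).

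Most of these regulator calls depend on the scaling or on single libraries. With library totals alone the median of all genes moved to 0.47 on the log2 scale, and foxo (adjusted p = 0.189), Smox (0.457), sug (0.138) and daw (0.120) were not called. InR was not called without replicate 1 (0.0546) of the knockdown or replicate 1 (0.0654) or 2 (0.0596) of the wild type. That of foxo was lost without knockdown replicate 1 (0.0830) or 2 (0.0535) or wild-type replicate 1 (0.0537). Those of Smox (without knockdown replicate 1 or 2 or wild-type replicate 1 or 2, 0.0711 to 0.112), sug (without any knockdown library or wild-type replicate 1, 0.0546 to 0.138) and daw (without any library other than knockdown replicate 3, 0.0602 to 0.166) were lost as stated. The log2 fold change of daw was -4.40 without knockdown replicate 3. ImpL2 passed in every alternative tried.

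**Figure D4:**
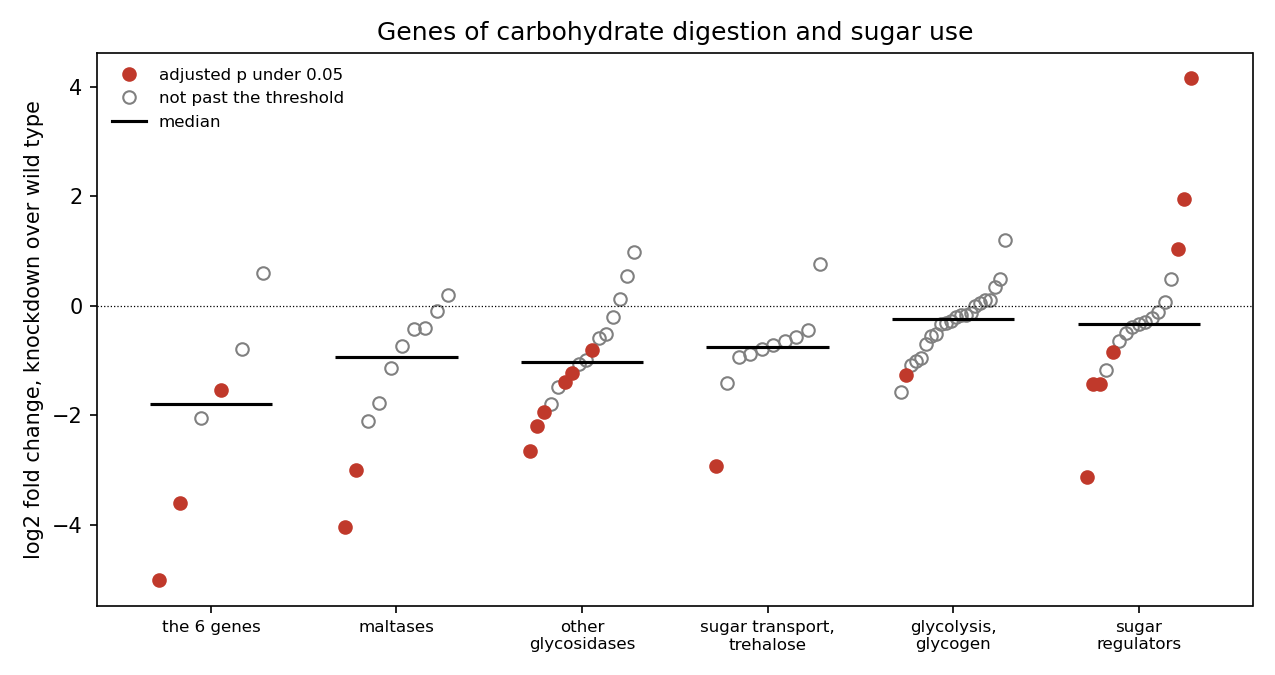
Log2 fold change of knockdown over wild type for every tested gene of 6 sets, with the median as a bar. Filled red points have an adjusted p under 0.05. With TMM scaling, as plotted, called genes lie below 0 in each set other than the sugar regulators, which hold 3 called above 0 and 4 below. With library totals alone 1 other glycosidase and 1 glycolysis gene were called higher, where over all genes 1154 were called higher and 240 lower.

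**Figure D5:**
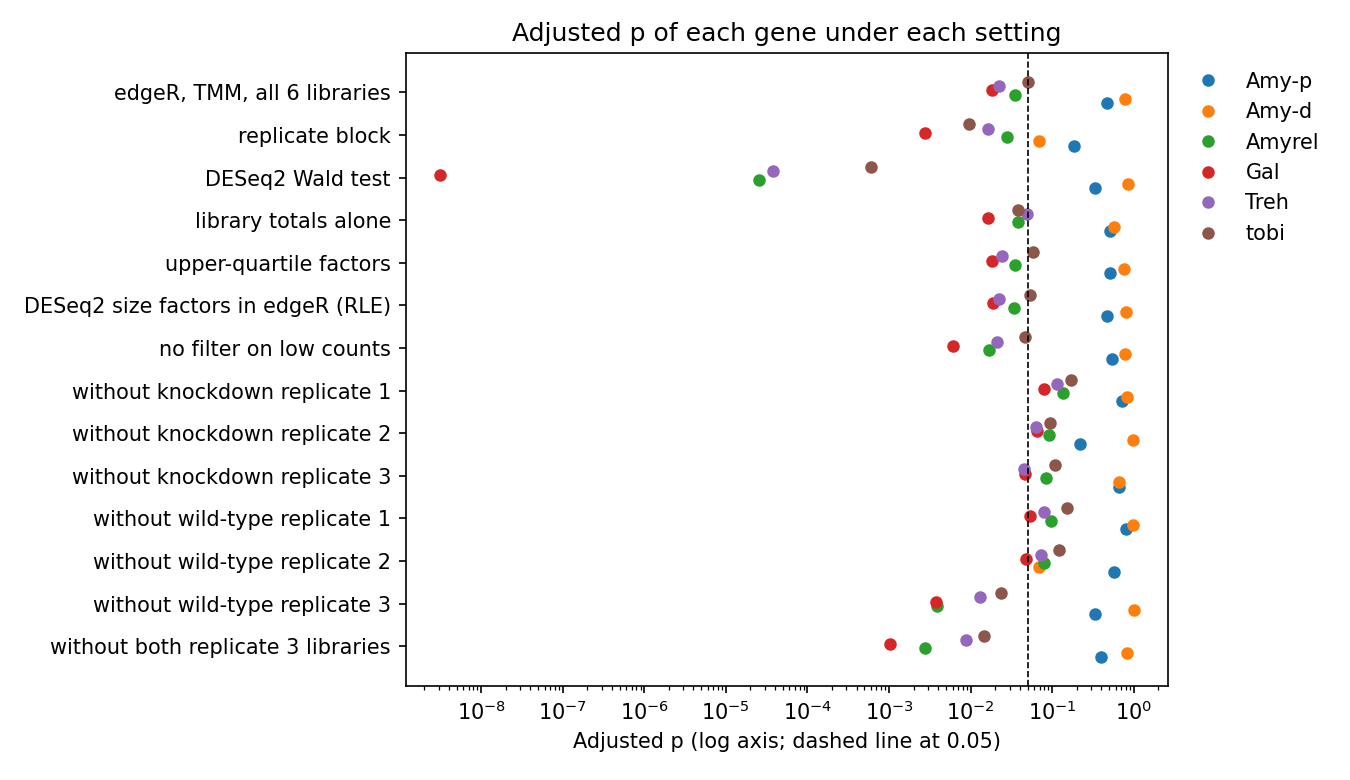
Adjusted p (log axis, dashed line at 0.05) of each of the 6 genes with all libraries and TMM scaling, and under each alternative. Amy-p and Amy-d stay to the right of the line throughout. Gal, Amyrel and Treh lie left of it in all fits with 6 libraries.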

How the data were processed

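The authors deposited raw read counts per gene for 6 midgut libraries. STAR 2.4.2a, HTSeq 0.6.1, DESeq2 and genome build BDGP5 are named per the submitters' processing notes. Annotation, counting mode and strand setting are not stated (not given in the sources used here). The authors' deposited comparison table holds, per the file headers, DESeq2 mean normalized counts (a signal), log2 fold changes with standard errors, a Wald score, and p-values. Genes were kept by filterByExpr (minimum count 10) and TMM-scaled, and groups were compared with edgeR 4.0.16 in R 4.3.3, group as sole term. DESeq2 1.42.0 was an alternative. Intervals of 95% used the fit's standard errors and degrees of freedom. Exonic lengths and names came from a BDGP6 annotation, so no coordinates are given.

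Members and lists were chosen with earlier results of these data known. Genes outside the 6 were named by a set rule: Rab11, all maltases, up to 4 called genes per list by p with the most abundant gene not called, daw, sug, foxo, Hnf4, and the likest patterns. Not every gene it allows is named. Values of markers are given as sums, with single genes named for enterocytes only. Groups and replicate numbers came from sample titles. The labels do not say whether replicates were separate groups of flies. P-values then reflect only the variation among these libraries, part of which may be technical. Replicates differed beyond sampling noise (chi-square per gene 67.7 to 376). Deviations of same-numbered libraries correlated at 0.14, 0.21 and 0.71, so the numbers were taken to pair libraries by a rule of all above 0.1. This pairing comes from the data, and for 2 of the 3 numbers a library of another number was more alike: knockdown replicate 2 correlated at 0.51 with wild-type replicate 1, and knockdown replicate 1 at 0.34 with wild-type replicate 2.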

Additional observations from a re-analysis of the deposited data

How the results depend on the processing

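The count of called genes was 1397, against 2451 with the replicate block and 460 to 1138 without a single library. Library totals alone gave 1154 higher and 240 lower of 1394 calls, against 758 and 639 with TMM, and upper-quartile factors gave 861 and 557. Gal, Amyrel and Treh kept their direction in every alternative and their calls in every fit with 6 libraries. Without single libraries their log2 fold changes ran from -5.59 to -4.59, from -4.19 to -2.75 and from -1.83 to -1.33. That of tobi ran from -2.47 to -1.60. It was called at -1.91 with the replicate block, -2.06 with DESeq2, -1.60 with library totals alone, -2.04 with no filter and -2.20 without both replicate 3 libraries, but not at -1.97 with upper-quartile or -2.07 with RLE factors. Amy-p, from -1.45 to -0.38, and Amy-d, from -0.13 to 3.43, were never called. The difference in Amy-p share, -16.2 points, ran from -25.0 to -11.8, and per exonic length it was -16.6. Without single libraries 1 to 2 maltases, 2 to 5 other glycosidases, 0 to 1 transport genes, 0 to 2 glycolysis genes and 1 to 6 regulators were called. With the replicate block 4 maltases, 10 other glycosidases and 4 glycolysis genes were called. DESeq2 called 2 transport and 2 glycolysis genes, no filter 2 glycolysis genes, and library totals alone 3 regulators. Without both replicate 3 libraries 2 transport and 3 glycolysis genes were called. Over all genes DESeq2 called 2004, no filter 1162 and the fit without both replicate 3 libraries 1739. In the main fit 10 maltases, 16 other glycosidases, 10 transport genes, 22 glycolysis genes and 17 regulators were tested.

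Signs turned for genes that were not called. Library totals alone gave 0.023 for Mal-A1, 0.29 for Mal-A5 and 0.14 for Hnf4, each below the median of 0.47 over all genes in that setting. With TMM that median was 0.04. Without both replicate 3 libraries, Mal-A2 was at -0.052 and Mal-A5 at 0.038. Without single libraries, Mal-A1 ran from -0.85 to 0.15, Mal-A2 from -0.17 to 0.68, Mal-A5 from -0.26 to 0.024, Mal-B1 from -2.69 to 0.025 and CG1213 from -1.27 to 0.028. The causes were not tested. Fits without a library hold fewer samples.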
